A study of Mus musculus with 6 samples.

Results

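The 10 genes described here encode proteins that neutrophils make as they mature. They are *Ltf*, *Camp*, *Ngp* and *Lcn2* of the secondary granules, the metalloproteinases *Mmp8* and *Mmp9*, the cytosolic pair *S100a8* and *S100a9*, and the late secreted *Retnlg* and *Chil3*. They were chosen by name, and all 10 were found among 53458 genes and were among the 22170 genes tested. RNA-seq was performed on AML blasts from bone marrow of 3 Cebpa-/p30 Tet2+/+ mice (mice 19, 23 and 24) and 3 Cebpa-/p30 Tet2-/- mice (mice 5, 7 and 8), all labelled as strain C57BL/6, with 1 library per mouse. Both genotypes carried a *Cebpa* allele that encodes only the p30 isoform together with a deleted *Cebpa* allele, and they differed by the label in *Tet2*. Per the study's methods, donor marrow with floxed alleles and Mx1-Cre, which is interferon-inducible and active in blood cells and beyond, was transplanted into irradiated recipients of the congenic strain C57BL/6J.SJL. Recombination was induced with Poly(I)-Poly(C) after engraftment. Marrow of moribund recipients was sorted for live donor cells (CD45.2+) without CD3, B220 and Ter119. Such a sort removes T, B and erythroid cells and keeps every donor myeloid cell, from blast to mature neutrophil or monocyte. In bulk RNA, fewer cells of a type and less RNA per cell cannot be told apart.

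Neutrophils form their granules in sequence. Azurophil granules with myeloperoxidase are made at the promyelocyte stage, specific (secondary) granules with lactoferrin and lipocalin at the myelocyte stage, and gelatinase granules with MMP-9 later still. The transcription factors C/EBPα and C/EBPε drive this programme. C/EBPα p42 is needed for granulocytic differentiation, and the p30 isoform lacks part of its transactivation domain. TET2 oxidizes 5-methylcytosine and is often mutated in myeloid leukemia.

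The deposited files held between 13036643 reads (mouse 24) and 32855343 reads (mouse 5) per library, so that even the least read of the 10 genes, *Mmp8* in mouse 23, had 3997 reads. *Tet2* itself was measured at between 73.6 and 98.4 TMM-normalized CPM (reads of a gene scaled to library size) in the Tet2+/+ mice and between 79.4 and 111.4 CPM in the Tet2-/- mice, with a log2 fold change of 0.19 ± 0.19 (SE) from edgeR (adjusted p = 0.842). The whole-gene count thus did not separate the genotypes and does not check the labels. The label of AML blasts was set against marker genes. *Cd34*, a progenitor marker, was detected in every library (32.1 to 310.0 CPM), and *Mpo*, which encodes myeloperoxidase, stood between 2662 and 4527 CPM. The neutrophil genes described here were also among the most abundant transcripts, so the sorted cells carried RNA of late granulocytic stages beside that of progenitors. Such RNA was present in both genotypes. *S100a9*, *S100a8* and *Ngp* ranked 1, 2 and 3 of all genes by mean CPM.

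Together the 10 genes took 6.28%, 1.51% and 5.95% of the reads in mice 19, 23 and 24. They took 7.82%, 11.2% and 2.69% in mice 5, 7 and 8. Mice 23 and 8 stood low and mouse 7 high, and the genotypes overlapped. In the most extreme library, that of mouse 7, 7 of the 10 most abundant genes were among these 10, against 1 of 10 in mouse 23. The log2 ratio of the genotype means of summed CPM was 0.86, and it was 0.31 without mouse 7 and 0.43 without mouse 23.

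Genome positions are given on GRCm38. *Camp* (ENSMUSG00000038357, chr9:109847379-109849617), *Ngp* (ENSMUSG00000032484, chr9:110419747-110423012) and *Ltf* (ENSMUSG00000032496, chr9:111019271-111042767) lie within 1170 kb of each other. *Mmp8* (ENSMUSG00000005800, chr9:7558456-7568485) lies far from them on the same chromosome. *S100a8* (ENSMUSG00000056054, chr3:90668978-90670035) and *S100a9* (ENSMUSG00000056071, chr3:90692632-90695721) are 22.6 kb apart. *Chil3* (ENSMUSG00000040809) lies elsewhere on this chromosome, at chr3:106147554-106167564. *Lcn2* (ENSMUSG00000026822, chr2:32384633-32388252), *Mmp9* (ENSMUSG00000017737, chr2:164940780-164955850) and *Retnlg* (ENSMUSG00000022651, chr16:48872621-48874496) complete the set. No annotated gene overlaps any of the 10.

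RefSeq promoters (250 bases before to 50 after the start, GRCm38.p6) were at hand for 9 of the 10 genes, all but *Mmp9*. Since C/EBP factors are the known drivers of this programme, the promoters were searched for a loose C/EBP word, TTNCNNAA on either strand. It was found in 8 of the 9 promoters, with *Camp* the exception, and in 40.7% of all 32851 mouse promoters of the same length. The PU.1 word GAGGAA, on either strand, was found in 4 of 9 (*Ltf*, *Lcn2*, *Mmp8* and *S100a8*) against 28.3% of all promoters. The GATA word GATAAG was found in 0 of 9 against 7.44%. These matches describe letters only and are no evidence of binding. The 250 bases upstream of the start are shown for a gene of each role and for both late secreted genes, which followed different orders over the mice. They are *Ltf* (chr9:111019042-111019291, + strand), *Mmp8* (chr9:7558179-7558428, + strand), *S100a9* (chr3:90695722-90695971, - strand), *Retnlg* (chr16:48872358-48872607, + strand) and *Chil3* (chr3:106167565-106167814, - strand). Each reads 5′ to 3′ on the strand of the gene, and capitals mark the matches to the C/EBP word.
Ltf: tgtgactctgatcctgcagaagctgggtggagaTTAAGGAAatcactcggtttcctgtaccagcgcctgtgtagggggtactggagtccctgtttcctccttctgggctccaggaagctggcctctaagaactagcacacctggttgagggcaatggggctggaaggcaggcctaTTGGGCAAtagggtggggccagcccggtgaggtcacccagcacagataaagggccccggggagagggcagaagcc
Mmp8: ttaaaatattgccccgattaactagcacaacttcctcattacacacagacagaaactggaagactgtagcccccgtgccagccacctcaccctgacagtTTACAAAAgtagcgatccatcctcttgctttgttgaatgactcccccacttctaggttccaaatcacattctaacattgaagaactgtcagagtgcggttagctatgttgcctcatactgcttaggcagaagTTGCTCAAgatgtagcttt
S100a9: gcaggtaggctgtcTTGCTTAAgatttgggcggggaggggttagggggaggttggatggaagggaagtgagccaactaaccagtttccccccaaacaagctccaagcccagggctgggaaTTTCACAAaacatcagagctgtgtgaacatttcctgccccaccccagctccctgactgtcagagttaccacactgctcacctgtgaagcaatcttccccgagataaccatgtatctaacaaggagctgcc
Retnlg: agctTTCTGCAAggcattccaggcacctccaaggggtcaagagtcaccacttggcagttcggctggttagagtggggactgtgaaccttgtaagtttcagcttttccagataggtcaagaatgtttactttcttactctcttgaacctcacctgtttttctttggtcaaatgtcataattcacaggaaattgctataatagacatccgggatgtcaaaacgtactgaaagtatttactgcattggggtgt
Chil3: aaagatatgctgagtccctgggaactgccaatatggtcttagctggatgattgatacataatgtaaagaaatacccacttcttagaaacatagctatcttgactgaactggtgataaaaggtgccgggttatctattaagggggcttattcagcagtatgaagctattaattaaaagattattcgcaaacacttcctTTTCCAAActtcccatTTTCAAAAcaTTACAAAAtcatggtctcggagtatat
Counted from the start of transcription, the matches of *Ltf* begin at bases -217 and -75, those of *Mmp8* at -151 and -19 and those of *S100a9* at -236 and -130. The single match of *Retnlg* begins at -246, and *Chil3* has 3 matches close to the start, at -53, -37 and -27.

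The secondary granule genes were compared first. *Ltf*, encoding the iron-binding lactoferrin, was measured at 8793, 1298 and 3931 CPM in mice 19, 23 and 24, and at 5348, 17443 and 3283 CPM in mice 5, 7 and 8. Mouse 7 was highest and mouse 23 lowest, and the other 4 mice lay between them with the genotypes mixed. The means were 4674 ± 3803 CPM in the Tet2+/+ mice and 8691 ± 7649 CPM in the Tet2-/- mice (SD, n = 3 each), with a log2 fold change of 0.89 (95% confidence interval -1.07 to 2.86, edgeR adjusted p = 0.826). Without mouse 7 the log2 fold change was -0.10.

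*Camp*, encoding the cathelicidin antimicrobial peptide, was measured at 4062, 546.1 and 2740 CPM in mice 19, 23 and 24 and at 3339, 8067 and 1110 CPM in mice 5, 7 and 8. It followed the same order of mice as *Ltf*, with mice 23 and 8 low. The log2 fold change was 0.77 (95% confidence interval -1.27 to 2.81, edgeR adjusted p = 0.859), and -0.13 without mouse 7. The highest level was 14.8-fold above the lowest, the widest range of the 10 genes.

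*Ngp*, encoding neutrophilic granule protein, a relative of the cathelicidins and cystatins, was measured at 11633, 1877 and 7485 CPM in mice 19, 23 and 24 and at 12655, 22916 and 4913 CPM in mice 5, 7 and 8. Here mice 7 and 5 stood above every Tet2+/+ mouse and mouse 8 stood below mice 19 and 24. The log2 fold change was 0.95 (95% confidence interval -0.87 to 2.76, edgeR adjusted p = 0.797), and it was 0.34 without mouse 7 and 0.49 without mouse 23. *Lcn2*, whose protein binds bacterial siderophores and so withholds iron, was measured at 3167, 989.8 and 2893 CPM in mice 19, 23 and 24 and at 4744, 8482 and 1924 CPM in mice 5, 7 and 8. Its order of mice was that of *Ngp*. With a log2 fold change of 1.10 (95% confidence interval -0.39 to 2.60, edgeR adjusted p = 0.704), *Lcn2* had the smallest adjusted p of the 10 genes. The value was 0.51 without mouse 7 and 0.73 without mouse 23.

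**Figure D1:**
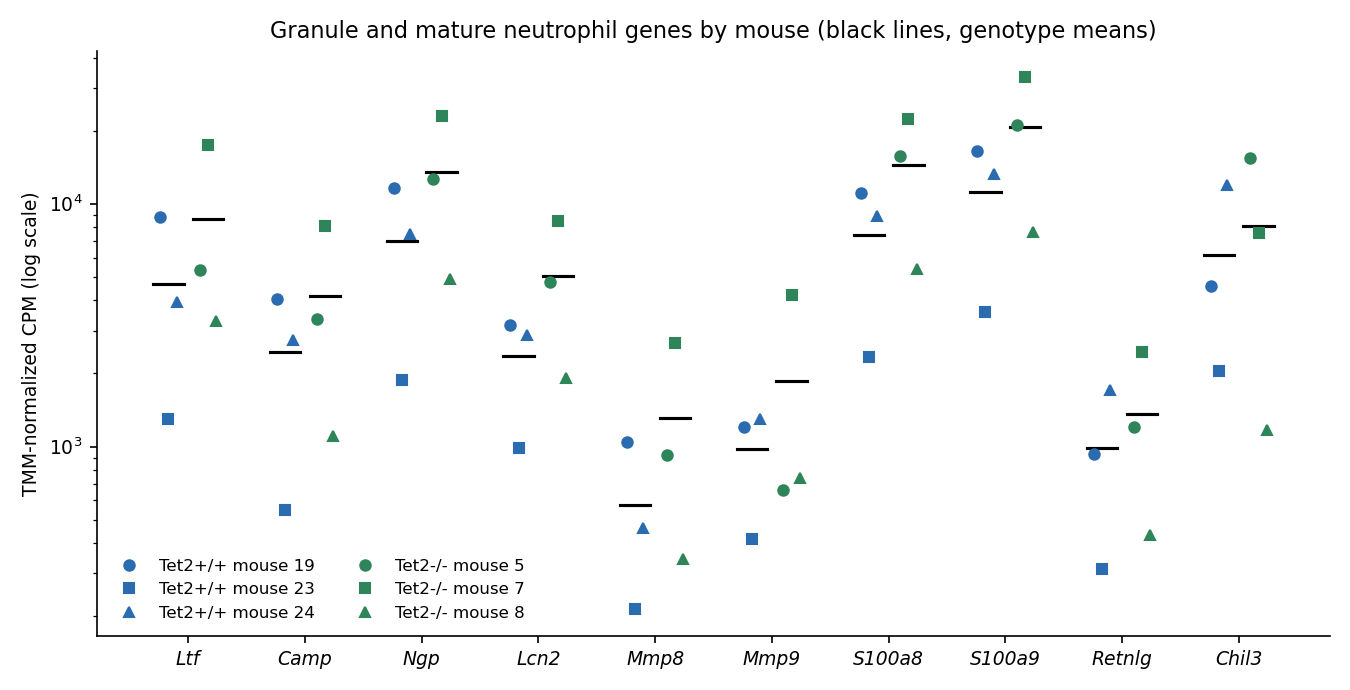
TMM-normalized CPM of each gene on a log axis, with 1 point per mouse (blue, Tet2+/+; green, Tet2-/-) and black lines at the genotype means. Mouse 7 is the highest and mouse 23 the lowest for 9 of the 10 genes, and the genotypes overlap for every gene.

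The metalloproteinases were compared next. *Mmp8*, the neutrophil collagenase, was measured at 1048, 214.0 and 463.3 CPM in mice 19, 23 and 24 and at 926.7, 2669 and 343.2 CPM in mice 5, 7 and 8. Mouse 7 stood above all others, and mice 23 and 8 were the lowest of their genotypes. The log2 fold change of 1.19 (95% confidence interval -0.74 to 3.12, edgeR adjusted p = 0.758) was the largest of the 10, and it was 0.16 without mouse 7. *Mmp9*, encoding gelatinase B of the gelatinase granules, was measured at 1208, 417.2 and 1302 CPM in mice 19, 23 and 24 and at 659.3, 4209 and 741.0 CPM in mice 5, 7 and 8. Mouse 7 alone stood above the Tet2+/+ mice, and mice 5 and 8 lay below 2 of the 3. Accordingly, the log2 fold change went from 0.94 (95% confidence interval -0.94 to 2.82, edgeR adjusted p = 0.811) to -0.48 when mouse 7 was left out.

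*S100a8* and *S100a9* encode the subunits of calprotectin, which binds calcium and zinc and makes up much of the neutrophil cytosol. *S100a8* was measured at 11093, 2345 and 8919 CPM in mice 19, 23 and 24 and at 15700, 22333 and 5378 CPM in mice 5, 7 and 8. *S100a9* was measured at 16567, 3597 and 13238 CPM in mice 19, 23 and 24 and at 21186, 33163 and 7671 CPM in mice 5, 7 and 8. Both genes had mice 7 and 5 above every Tet2+/+ mouse and mouse 8 below mice 19 and 24. The log2 fold changes were 0.96 for *S100a8* (95% confidence interval -0.71 to 2.63, edgeR adjusted p = 0.777) and 0.89 for *S100a9* (95% confidence interval -0.80 to 2.59, edgeR adjusted p = 0.795). They were 0.51 and 0.38 without mouse 7, and 0.52 and 0.46 without mouse 23. The ratio of *S100a8* to *S100a9* stayed between 0.652 and 0.741 in the 6 mice, although each gene varied over 9-fold.

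Both late secreted genes departed from this order. *Retnlg*, encoding the resistin-like protein gamma, was measured at 929.6, 311.9 and 1705 CPM in mice 19, 23 and 24 and at 1206, 2459 and 432.1 CPM in mice 5, 7 and 8. Mouse 24, which lay below mice 19 and 5 for *Ltf*, stood above both here. The log2 fold change was 0.48 (95% confidence interval -1.29 to 2.24, edgeR adjusted p = 0.903), and -0.26 without mouse 7. *Chil3*, encoding the chitinase-like lectin Ym1 of neutrophils and macrophages, was measured at 4565, 2051 and 11894 CPM in mice 19, 23 and 24 and at 15468, 7546 and 1169 CPM in mice 5, 7 and 8. Mice 5 and 24 were highest and mouse 8 was lowest, so each genotype held a high and a low mouse. The log2 fold change was 0.39 (95% confidence interval -1.83 to 2.61, edgeR adjusted p = 0.946), and it was -0.51 without mouse 5 and -0.05 without mouse 23. *Chil3* shares sequence with *Chil4* (94.3% identity along the transcript) and with *Gm6522*, whose level is not given here. Reads could be split between such copies. *Chil4* was listed at between 2.12 and 18.8 CPM, far below *Chil3* in each mouse.

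**Figure D2:**
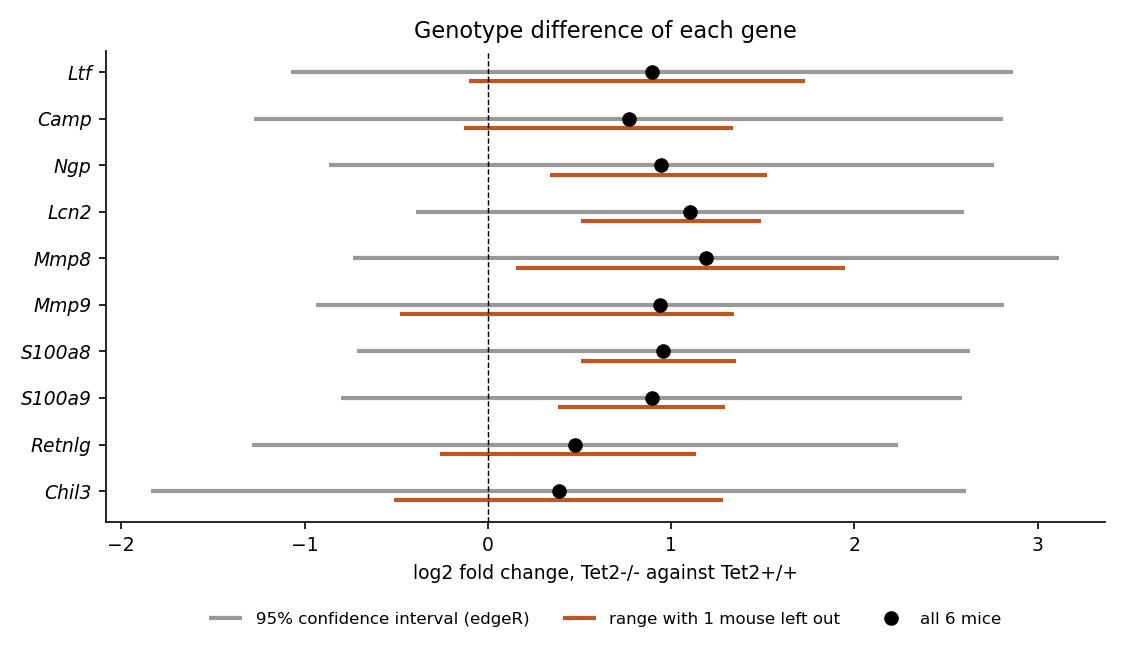
Log2 fold change of each gene, Tet2-/- against Tet2+/+ (points), with the 95% confidence interval from edgeR (grey) and the range when a mouse is left out in turn (orange). All 10 points lie above 0 and every interval spans 0, and the leave-one-out range reaches below 0 for *Ltf*, *Camp*, *Mmp9*, *Retnlg* and *Chil3*.

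None of the 10 genes passed the test. At an adjusted p under 0.05 with edgeR, 0 of 10 were higher in the Tet2-/- mice, against 0 of all 22170 genes (0.0%), and 0 of 10 were lower, against 10 genes (0.0451%). At an unadjusted p under 0.05, 0 of 10 were higher against 3.0% of all genes, and 0 of 10 were lower against 5.12%. DESeq2 on the same counts and limma on log2(TPM + 1) also gave 0 of 10, both adjusted and unadjusted. Mice of one genotype lay wholly above the other for 0 of 10 genes, where 6.41% of all genes tested had every Tet2-/- mouse higher and 7.94% had every Tet2-/- mouse lower. When mouse 8 was left out, *Ngp*, *Lcn2*, *S100a8* and *S100a9* had both remaining Tet2-/- mice above every Tet2+/+ mouse, against 12.7% of all genes. Mouse 8 was the lowest Tet2-/- mouse for these 4 genes, which share 1 order of mice. No conclusion on genotype is drawn from this count. The exact two-sided permutation test on log2(CPM + 1), which cannot give a p under 0.1 with 3 mice against 3, gave 0.4 for *Ngp*, *Lcn2*, *S100a8* and *S100a9*, 0.5 for *Ltf* and *Mmp8*, and between 0.6 and 1 for the other 4. All 10 fitted log2 fold changes were positive, with a median of 0.92, beside a median of 0.00 and 50.1% positive over all genes tested. For the genes averaging 10 CPM or more, the median was 0.10 and 64.0% were positive. Without mouse 7, 6 of 10 were positive with a median of 0.25, and without mouse 23, 9 of 10 with a median of 0.48. The 10 values share the same mice and are not separate observations of a genotype difference. The confidence intervals reach from a lower level in the Tet2-/- mice to an over 4-fold higher one for all 10 genes.

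The spread lay between mice and not in the counting. Within genotypes, the SD of log2(CPM + 1) was between 1.01 (*Lcn2*) and 1.63 (*Chil3*), which placed the 10 genes between percentiles 94.6 and 99.0 of the 13839 genes that averaged 1 CPM or more, whose median SD was 0.32. The biological coefficient of variation was between 51.9% and 74.6%, beside a median of 25.9% for genes averaging 10 CPM or more. Among the Tet2+/+ mice alone, *Camp* varied 7.44-fold and *Mmp9* 3.12-fold. Among the Tet2-/- mice, *Chil3* varied 13.2-fold and *S100a8* 4.15-fold.

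**Figure D3:**
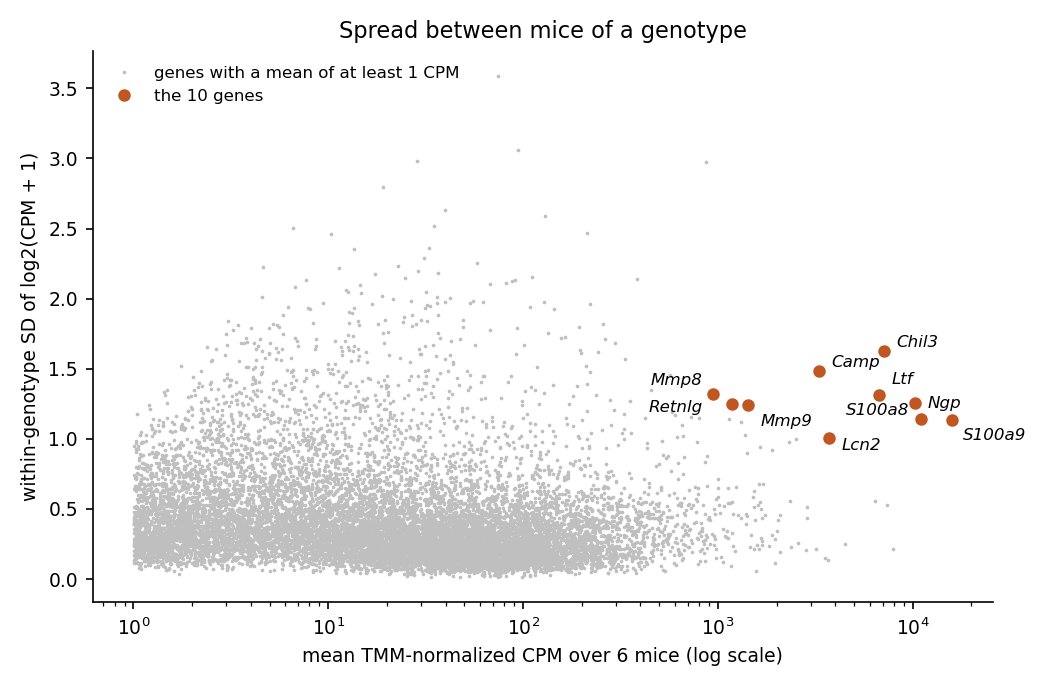
Within-genotype SD of log2(CPM + 1) against mean CPM on a log axis, with 1 point per gene. The 10 genes (orange) lie between 1.01 and 1.63, above most genes (grey, median 0.32), including those of like abundance.

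The genes moved together over the mice. Mouse 7 was highest and mouse 23 lowest for 9 of the 10 genes, a pattern that 12.0% of 9175 genes averaging 10 CPM or more shared, with *Chil3* the exception. *Ngp*, *Lcn2*, *S100a8* and *S100a9* ran in the order of mice 7, 5, 19, 24, 8 and 23. *Ltf*, *Camp* and *Mmp8* differed from this only in that mouse 19 stood above mouse 5. Distance to the mean profile of the 10, as a root mean square over the mice in log2(CPM + 1), was smallest for *S100a9* (0.14) and largest for *Chil3* (0.92) and *Mmp9* (0.58). Relative to the other 9 genes, *Chil3* stood at 1.20 and 1.22 in mice 24 and 5 and at -1.04 and -1.31 in mice 7 and 8, in log2 units. *Mmp9* stood at -1.34 in mouse 5. *Retnlg* stood at 0.78 in mouse 24. The ratio of *Chil3* to *Ltf* accordingly ranged from 0.356 in mouse 8 to 3.03 in mouse 24, and that of *Camp* to *Ngp* only from 0.226 to 0.366.

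**Figure D4:**
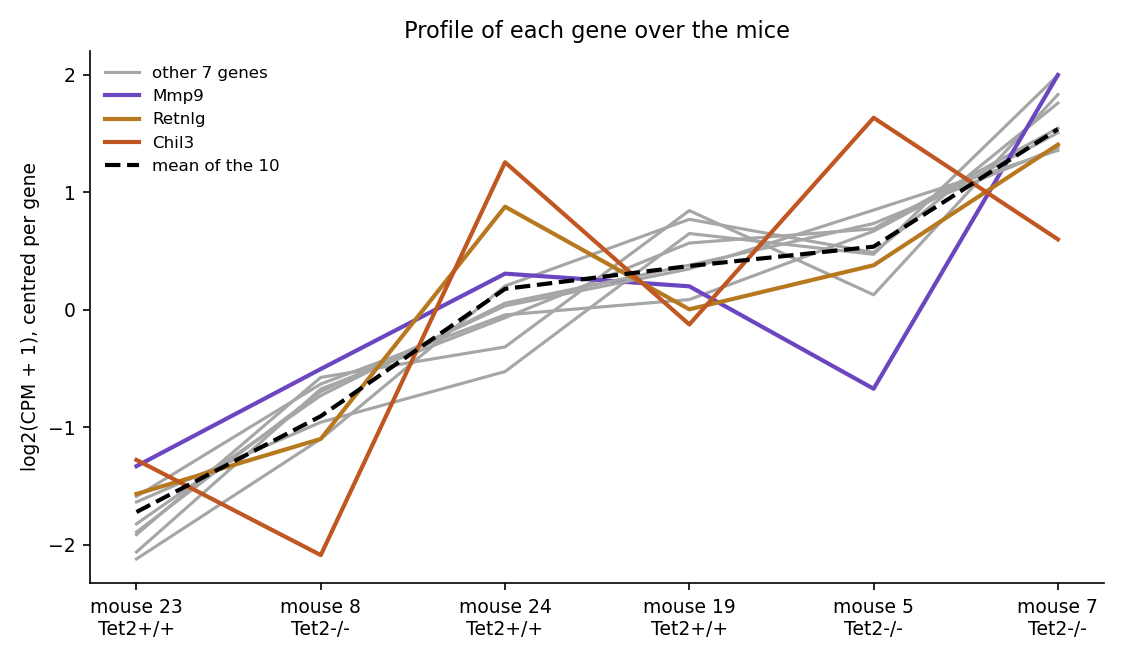
Log2(CPM + 1) of each gene, centred on its mean over the 6 mice, with mice ordered by the mean of the 10 genes (dashed). *Chil3* departs from the rest, at its highest in mouse 5 and its lowest in mouse 8, and *Mmp9* dips in mouse 5.

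Levels were compared between genes as mean CPM per kb of the longest coding transcript. The order was *S100a9* (30643), *S100a8* (22554), *Ngp* (8385), *Chil3* (4624), *Camp* (4368), *Lcn2* (4044), *Ltf* (2436), *Retnlg* (1980), *Mmp9* (448.1) and *Mmp8* (389.2). The first 3 kept their order in all 6 mice. The neighbours *Chil3* and *Camp*, *Camp* and *Lcn2*, and *Ltf* and *Retnlg* were each in this order in only 3 of 6 mice, and *Mmp9* and *Mmp8* in 4 of 6. Gene sums of TPM were not used for this, because very short transcripts dominate them. A *Chil3* transcript of 174 bases held between 2.71% and 3.27% of the *Chil3* reads and 75.8% of its summed TPM. An *Ltf* transcript of 233 bases held between 4.10% and 4.45% of the *Ltf* reads and 46.4% of its summed TPM. The main transcripts held nearly constant shares of the reads. The longest coding transcript held between 51.9% and 53.8% of the *Ltf* reads and between 91.9% and 94.8% of the *Mmp9* reads. Of the 2 *S100a9* transcripts, that of 512 bases held between 82.5% and 84.2%. Minor transcripts varied more. An *Mmp9* transcript of 1125 bases held between 1.67% (mouse 7) and 4.56% (mouse 23) of the reads, and that of 416 bases held 0% in mouse 5 and between 0.699% and 0.990% in the others.

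Other genes of the programme were taken from fixed lists. Of 16 other specific and gelatinase granule genes, 0 passed an adjusted p under 0.05 in edgeR, 15 had a positive log2 fold change, and the median was 0.74. DESeq2 also called 0. At an unadjusted p under 0.05, *Orm1* and *Cyba* (2 of 16) were higher, beside 3.0% of all genes. *Cyba*, encoding the small subunit of cytochrome b558, was measured at 367.3, 307.4 and 262.3 CPM in mice 19, 23 and 24 and at 536.7, 606.6 and 434.4 CPM in mice 5, 7 and 8. Its groups did not overlap, as in 6.41% of all genes with every Tet2-/- mouse higher (log2 fold change 0.75, edgeR adjusted p = 0.491). *Orm1*, encoding an orosomucoid, reached 103.7 and 61.1 CPM in mice 5 and 7 and lay between 2.03 and 16.5 CPM in the others, with a log2 fold change of 2.83 (edgeR adjusted p = 0.609). Of the 2 genes with the highest mean TPM in the list, *Lyz2*, encoding lysozyme, had a log2 fold change of 0.59, and *Wfdc21*, encoding a WAP domain protein, of 1.15 (edgeR adjusted p = 0.764 and 0.735). Only *Olfm4*, a specific granule protein of a neutrophil subset, was negative (-0.97), and it was highest in mouse 24 with 4454 CPM. *Olfm4* stood between 679.1 and 1348 CPM in the other mice.

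All 16 genes of the mature neutrophil list, mostly receptors and surface proteins, had a positive log2 fold change, with a median of 0.84, and 0 passed an adjusted p under 0.05 in edgeR (1 in DESeq2, *Mcemp1*, and with DESeq2 on length-scaled counts also *Clec4e*, adjusted p = 0.0243). At an unadjusted p under 0.05, 4 of 16 were higher, beside 3.0% of all genes, and all 4 were without overlap, beside 6.41%. They are the C-type lectins *Clec4d* (1.03) and *Clec4e* (0.95), the chemokine receptor *Ccr1* (0.61) and *Mcemp1* (1.54), chosen for naming after their values were seen, with edgeR adjusted p between 0.425 and 0.599. *Mcemp1*, a membrane protein of myeloid cells, was measured at 109.8, 52.9 and 98.1 CPM in mice 19, 23 and 24 and at 240.9, 372.9 and 146.2 CPM in mice 5, 7 and 8. The G-CSF receptor gene *Csf3r* stood between 260.4 and 531.3 CPM in the Tet2+/+ mice and between 226.8 and 918.0 CPM in the Tet2-/- mice. *Ly6g*, which defines mature mouse neutrophils, stood at 193.9, 34.8 and 34.0 CPM in mice 19, 23 and 24 and at 337.8, 522.0 and 33.5 CPM in mice 5, 7 and 8. Mouse 8 thus lay with mice 23 and 24 for *Ly6g*, and the log2 fold change was 1.77 (edgeR adjusted p = 0.710). *Padi4*, whose enzyme citrullinates histones, had a log2 fold change of 0.63 (edgeR adjusted p = 0.760), which ranged from 0.024 to 0.88 with a mouse left out.

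The earlier azurophil granule genes had mixed directions. Of 8, 4 were positive and 4 negative with a median of 0.00, and 0 passed an adjusted p under 0.05 in edgeR or DESeq2. Of the 8, 0 had mouse 7 highest and mouse 23 lowest, beside 12.0% of genes averaging 10 CPM or more. At an unadjusted p under 0.05, *Ms4a3*, encoding a membrane protein of granulocyte progenitors, was higher (log2 fold change 0.69) and *Bpi*, encoding a bactericidal protein, was lower (-1.28, at 1.14 CPM or less in every mouse), both named after their values were seen. The summed level of the 8 genes varied between 5270 and 7188 CPM, and *Mpo* was the largest part of it. Within genotypes, *Elane*, named after its values were seen, had an SD of log2(CPM + 1) of 0.98, beside 0.13 for *Mpo*. *Mpo* was lower in every Tet2-/- mouse (3394, 3091 and 2662 CPM) than in any Tet2+/+ mouse (4527, 4110 and 4230 CPM), with a log2 fold change of -0.49 (edgeR adjusted p = 0.664). In this list 2 of 8 genes were lower without overlap and 1 of 8 was higher, beside 7.94% and 6.41% of all genes. *Prtn3*, encoding proteinase 3, had a log2 fold change of 0.07. Of 9 granulocytic transcription factors, 7 were positive with a median of 0.49, and 0 passed the test, adjusted or unadjusted, and DESeq2 called 0. *Cebpe*, the factor of the secondary granule stage, was measured at 182.4, 90.8 and 183.2 CPM in mice 19, 23 and 24 and at 216.6, 401.7 and 105.5 CPM in mice 5, 7 and 8. It was highest in mouse 7 and lowest in mouse 23, as were 3 of the 9 factors and 12.0% of genes averaging 10 CPM or more. Its log2 fold change was 0.67 (edgeR adjusted p = 0.779), and ranged from 0.088 to 1.02 with a mouse left out. *Spi1*, encoding PU.1, had a log2 fold change of 0.31, *Cebpd* of 0.68 and *Cebpa* of -0.80 (edgeR adjusted p = 0.783, 0.628 and 0.632).

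The stefin A cluster, cytosolic protease inhibitors that are abundant in neutrophils, ran another way. All 5 genes had a negative log2 fold change, with a median of -0.75, and 0 passed the test, adjusted or unadjusted, and DESeq2 called 0. Their summed level was 15315, 3398 and 7559 CPM in mice 19, 23 and 24 and 2594, 3691 and 9139 CPM in mice 5, 7 and 8. Mouse 5 was lowest and mouse 8 stood second here, unlike in the granule genes. Those of highest mean TPM, *Stfa1* and *BC100530*, had log2 fold changes of -0.83 and -0.71 (edgeR adjusted p = 0.790 and 0.817), and reads could be split between them at 96.9% identity.

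Partners of the 10 proteins were compared as well. Of 10 (receptors, tissue inhibitors of metalloproteinases and others), 0 passed an adjusted p under 0.05 in edgeR, and 1 was lower at an unadjusted p under 0.05, beside 5.12% of all genes. This was *Slc22a17*, which encodes a receptor for lipocalin 2. It was measured at 4.79, 45.8 and 40.0 CPM in mice 19, 23 and 24 and at 0.506, 0.643 and 0.705 CPM in mice 5, 7 and 8. All Tet2-/- mice thus lay below 1 CPM and below every Tet2+/+ mouse, as in 7.94% of all genes, with a log2 fold change of -5.61 ± 0.88 (SE, edgeR adjusted p = 0.151). Across the alternative settings the adjusted p of *Slc22a17* ranged from 1.36e-13 (DESeq2 on length-scaled counts) to 0.412 (without mouse 5). It passed with both DESeq2 fits and with edgeR when low counts were not filtered or mouse 19 was left out. This gene was named after its values were seen. *Bsg*, encoding basigin, which binds S100A9, and *Timp2*, encoding an inhibitor of metalloproteinases, had log2 fold changes of 0.11 and 0.53 (edgeR adjusted p = 0.926 and 0.788).

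Relatives of the 10 genes by sequence followed mixed patterns. Of 8 S100 relatives tested, 7 were positive with a median of 0.56, 0 passed an adjusted p under 0.05 in edgeR, and 3 of 8 had every Tet2-/- mouse higher, beside 6.41% of all genes. *S100a6*, encoding calcyclin, was measured at 305.4, 238.6 and 479.6 CPM in mice 19, 23 and 24 and at 730.2, 809.4 and 639.9 CPM in mice 5, 7 and 8. Its log2 fold change was 1.09 (edgeR adjusted p = 0.433, 0.0472 with DESeq2). *S100a1* and *S100a13* were the others without overlap, each with a log2 fold change of 0.53, and together with *S100a6* and the scarce *S100a3* (0.348 CPM or less) they were the 4 of 8 that were higher at an unadjusted p under 0.05, beside 3.0% of all genes. *S100a1*, *S100a13* and *S100a3* were named after their values were seen. *S100a11*, named for its mean TPM, had 0.56. Chitinase-like and resistin-like relatives were scarce beside *Chil3*. Of the 8 tested, 5 were positive and 0 passed an adjusted p under 0.05 in edgeR or DESeq2. At an unadjusted p under 0.05, 1 of 8 was lower, beside 5.12% of all genes. This was *Chit1*, named after its values were seen, with 5.62 CPM in mouse 19 and 0.589 CPM or less in the others. *Chil1* stood between 47.9 and 346.3 CPM in the Tet2+/+ mice and between 25.0 and 683.3 CPM in the Tet2-/- mice, and *Chil5* had at most 21.8 CPM. Of 11 other matrix metalloproteinases tested, 7 were positive and 0 passed an adjusted p under 0.05 in edgeR or DESeq2. At an unadjusted p under 0.05 only *Mmp11* was lower (1 of 11, beside 5.12% of all genes), at under 1 CPM in every mouse, and it was named after its values were seen. Those of highest mean TPM, *Mmp19* and *Mmp14*, had at most 40.0 and 16.3 CPM.

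Markers of the other cells that the sort could hold were given beside these results. Monocyte and macrophage genes (14 of 14 detected) summed to between 1656 and 3001 CPM in the Tet2+/+ mice and between 2492 and 4967 CPM in the Tet2-/- mice. Of the 14, 12 had a positive log2 fold change, with a median of 0.89 beside 0.92 for the 10 genes, and 0 passed an adjusted p under 0.05 in edgeR. *Csf1r*, which defines monocytes, was highest in mouse 8 (748.6 CPM) and lowest in mouse 7 (87.4 CPM), and so was *Cx3cr1* (201.9 and 2.44 CPM), named after the values were seen, with log2 fold changes of 0.24 and 0.95. *Ly6c2*, shared by monocytes and their precursors, was higher in every Tet2-/- mouse (2993, 2124 and 2495 CPM) than in any Tet2+/+ mouse (1623, 1428 and 1049 CPM). It was 1 of 14 genes without overlap, beside 6.41% of all genes. Its log2 fold change was 0.89 (adjusted p = 0.512 in edgeR and 0.0248 in DESeq2). *Adgre1*, encoding F4/80, had 0.17. The stem and progenitor genes (8 of 8 tested) summed to 399.6, 560.8 and 457.8 CPM in mice 19, 23 and 24 and to 341.7, 200.5 and 282.4 CPM in mice 5, 7 and 8. This sum was highest in mouse 23 and lowest in mouse 7, with every Tet2-/- mouse below every Tet2+/+ mouse. Of the 8 genes, 7 had a negative log2 fold change, with a median of -0.65, and 0 passed an adjusted p under 0.05 in edgeR. Only 4 of the 8 averaged 1 CPM or more. *Cd34* was the largest part of the sum in mouse 23. The other 7 genes, summed after these values were seen, came to 229.2, 250.8 and 264.8 CPM in mice 19, 23 and 24 and to 251.6, 168.3 and 150.8 CPM in mice 5, 7 and 8, and there the genotypes overlapped. Within this list, *Cd34* had a log2 fold change of -1.41 and *Myc* of -0.52 (edgeR adjusted p = 0.582 and 0.722). The part of cell composition in the levels of the granule genes was not tested.

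**Figure D5:**
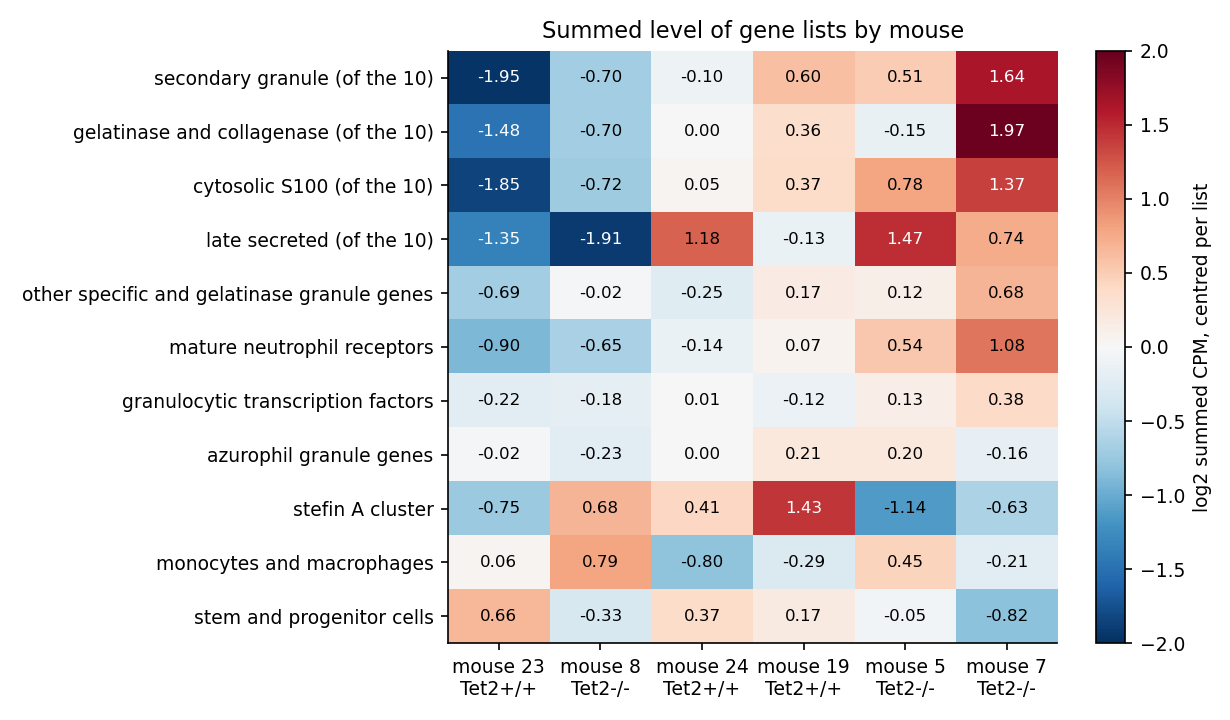
Log2 of the summed CPM of each gene list, centred on its mean over the 6 mice, with mice ordered by the mean of the 10 genes (blue, low; red, high). The upper 3 groups of the 10 genes run from low in mouse 23 to high in mouse 7. The sum of the azurophil granule genes, of which *Mpo* is the largest part, stays between -0.23 and 0.21.

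The remaining lineages were summed in the same way. Summed CPM lay between 142.8 and 369.4 for eosinophil genes (7 of 8 tested), and between 9.17 and 45.6 for megakaryocyte and platelet genes (5 of 6). For basophil and mast cell genes (5 of 7 tested, 2 of them positive), the sum was lower in every Tet2-/- mouse (174.1 to 357.7 CPM) than in any Tet2+/+ mouse (409.3 to 499.1 CPM). *Cpa3* was the largest part of this sum in the Tet2+/+ mice (263.5 to 362.5 CPM, against 16.8 to 87.7 CPM in the Tet2-/- mice). *Hdc* overlapped between the genotypes, at 37.7 to 206.0 CPM in the Tet2+/+ mice and 138.6 to 299.8 CPM in the Tet2-/- mice. Summed CPM lay between 22.6 and 82.7 for B cell genes (6 of 6) and between 10.0 and 36.8 for T and NK cell genes (7 of 7). Erythroid genes (8 of 9) stood at 145.7 CPM in mouse 19 and at 15.3 CPM or less in the others. Log2 fold changes were negative for 5 of 7 eosinophil genes (median -0.77), 4 of 5 megakaryocyte and platelet genes (-0.49), 5 of 6 B cell genes (-0.66), 8 of 8 erythroid genes (-2.13) and 3 of 7 T and NK cell genes (0.03). In the same order, 5 of 7, 2 of 5, 5 of 6, 4 of 8 and 7 of 7 of these genes averaged 1 CPM or more. The markers of highest mean TPM in these lists were *Siglecf* and *Ear2* (log2 fold change -0.27 and 0.13), *Cpa3* and *Hdc* (-2.66 and 0.996), and *Itga2b* and *Gp9* (-1.34 and 0.44). For B, T and erythroid cells they were *Cd79b* and *Cd79a* (0.09 and -0.71), *Cd3d* and *Trac* (0.03 and -0.66), and *Hbb-bs* and *Hbb-bt* (-2.04 and -2.21). None of these 12 passed an adjusted p under 0.05 in edgeR. *Cpa3* and *Itga2b* were lower at an unadjusted p under 0.05, and DESeq2 called *Cpa3*. Over these lists, 1 of 7 eosinophil, 2 of 5 basophil and mast cell and 1 of 8 erythroid genes were lower at this threshold. So were 1 of 5 megakaryocyte and platelet, 0 of 6 B cell and 1 of 7 T and NK cell genes, beside 5.12% of all genes. In these lists DESeq2 also called *Cd200r3* of basophils and *Ncr1* of NK cells lower (log2 fold change -2.03 and -2.11), both named after their values were seen.

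The genes whose profile over the 6 mice lay nearest to the mean of the 10 were sought among 8726 other protein-coding genes averaging 10 CPM or more. Among the nearest were *Abtb2*, *Klf5*, *Rnf144a* and *Il1rn*, at root mean square distances between 0.15 and 0.19 in log2(CPM + 1), where the median gene was at 1.09. *Rnf144a*, the most abundant of these 4, was measured at 163.9, 50.5 and 143.3 CPM in mice 19, 23 and 24 and at 186.0, 394.8 and 61.3 CPM in mice 5, 7 and 8. The log2 fold changes of these 4 genes lay between 0.75 (*Klf5*) and 0.95 (*Il1rn*), and none passed the test, with edgeR adjusted p between 0.763 and 0.815. These values follow from the choice of the genes by their profile over the same mice. With a mouse left out, the lowest values lay between 0.062 (*Rnf144a*) and 0.28 (*Klf5*).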

How the data were processed

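RNA of sorted AML blasts was sequenced by the authors from TruSeq libraries, which do not mark strand, and quantified with Salmon 0.12.0 against Ensembl 94 transcripts of GRCm38. The estimated counts deposited by the authors are reads per transcript, not normalized between mice. The TPM values deposited by the authors are scaled by effective length to the same total in each mouse. Depth was 13036643 to 32855343 reads, and counting error is small beside the spread between mice.

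Estimated counts were summed to GENCODE M21 genes (Python 3.11.15, pandas 2.3.3), leaving out 112 of 136288 transcripts without a gene (0.0307% to 0.0416% of reads), and rounded. Genes with library-size-normalized counts summing to at least 10 were compared in edgeR 4.0.16 (R 4.3.3) by its quasi-likelihood test after TMM normalization (factors 0.867 to 1.11), without covariates. Adjusted p are Benjamini-Hochberg over all 22170 genes, with a threshold of 0.05. The SE was taken as log2 fold change over the root of the F statistic. A positive log2 fold change means higher in Tet2-/-. Alternatives were DESeq2 1.42.0, length-scaled counts (the authors' approach), other filters and scalings, robust estimation, limma 3.58.1 on log2(TPM + 1) and log2(TPM + 0.1) for the 10 genes and the counts over all genes, and leaving out each mouse. The edgeR and DESeq2 fits were tested on simulated data. Sequence identity came from BLAST+ 2.17.0.

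The 10 genes and all lists were chosen with earlier results of these data known. Named beside the 10 were the 2 genes of highest mean TPM in each other list (mean of 1 CPM or more), *Cebpe*, *Csf3r*, *Ly6g*, *Tet2* and the 5 nearest profiles, of which 1 is not reported here. Other names were added after their values were seen: *Orm1*, *Cyba*, *Olfm4*, *Chil4*, *Cebpa*, *Cebpd*, *Csf1r* and those so marked. No batch is given.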

Additional observations from a re-analysis of the deposited data

How the results depend on the processing

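For the 10 genes, 154 of 160 alternative values kept their direction, and none passed an adjusted p under 0.05 (smallest 0.531, edgeR without mouse 8, where 1 gene passed unadjusted). The 6 that turned were leave-one-out values. With a mouse left out, log2 fold changes ranged from -0.10 to 1.73 for *Ltf*, -0.13 to 1.34 for *Camp*, -0.48 to 1.34 for *Mmp9*, -0.26 to 1.14 for *Retnlg* and -0.51 to 1.28 for *Chil3*. They ranged from 0.34 to 1.52 for *Ngp*, 0.51 to 1.49 for *Lcn2*, 0.16 to 1.95 for *Mmp8*, 0.51 to 1.36 for *S100a8* and 0.38 to 1.29 for *S100a9*. The count of the 10 higher without overlap ranged from 0 to 4. The log2 ratio of summed CPM ranged from 0.31 to 1.27 with a mouse left out and was 0.66 scaled by library size only. Over all genes, calls depended on the tool. Against 10 lower and 0 higher, DESeq2 called 326 and 59, DESeq2 on length-scaled counts 322 and 64, edgeR on length-scaled counts 5 lower, edgeR with no filter 62 and 4, filterByExpr 1 higher and RLE factors 1 higher, and leaving out a mouse gave between 0 and 7 lower. With limma, 14 were lower and 4 higher on log2(TPM + 1), and 15 and 4 on log2(TPM + 0.1). Scaling by library size only moved the median over all genes from a log2 fold change of 0.00 to -0.17 and that over the 10 genes from 0.92 to 0.70, and it turned *Prtn3* (-0.11), *Bsg* (-0.057), *Chil5* (-0.10), *Ear2* (-0.13), *Cd79b* (-0.055), *Cd3d* (-0.20) and *Chil4* (-0.085). Length-scaled counts turned *Tet2* to -0.0459 in edgeR and to -0.0493 in DESeq2. Leave-one-out ranges that crossed 0 were -0.33 to 0.24 for *Prtn3*, -0.063 to 0.28 for *Bsg*, -1.58 to 1.63 for *Chil1*, -1.29 to 0.67 for *Chil5*, -1.27 to 1.95 for *Mmp14*, -0.52 to 0.53 for *Adgre1*, -1.10 to 0.57 for *Ear2*, -2.58 to 1.18 for *Hbb-bs*, -2.79 to 2.04 for *Hbb-bt*, -0.62 to 2.10 for *Gp9*, -0.31 to 0.62 for *Cd79b*, -1.02 to 0.40 for *Cd3d*, -1.35 to 0.10 for *Olfm4*, -0.37 to 1.06 for *Chil4*, -0.90 to 0.70 for *Csf1r* and -1.46 to 1.78 for *Cx3cr1*. The cause of these changes was not tested. No paired analysis was possible because the genotypes share no replicate numbers. Each of the 10 genes had at least 3997 reads in every library, so depth does not limit them.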
